A study of Bos taurus with 40 samples.

Results

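The heat shock proteins and chaperones described here are 10 genes sought by symbol in the deposited count tables: HSPA1A, HSPA5 and HSPA8 of the HSP70 family, HSP90AA1, HSPH1, DNAJB1, and the small heat shock proteins HSPB1, HSPB6, HSPB7 and CRYAB. Of these 10 genes, 9 were among the 13570 genes of the tables, and HSPB7 was not analysed here. All 9 passed the filter on low counts, which kept the 13148 genes that had any read, and none was lost to it. The smallest count of a member in any sample was 77 reads, for HSPB6 in the pituitary gland of cow 1.

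Molecular chaperones hold unfolded or damaged proteins and help them to fold. HSP70 proteins bind exposed stretches of their clients in cycles of ATP hydrolysis, J-domain proteins such as DNAJB1 deliver clients and speed up hydrolysis, proteins of the HSP110 class such as HSPH1 exchange the nucleotide, and HSP90 takes over later steps of folding. Small heat shock proteins hold clients without ATP, and in skeletal muscle they protect the contractile apparatus and the desmin network. HSPA5, also called BiP, is the HSP70 of the endoplasmic reticulum, and its level follows the load of secreted proteins.

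The samples were 40 RNA-seq libraries from 10 Korean cattle, a beef breed, with 1 library for each animal and tissue. The tissues were liver, abdominal fat, longissimus dorsi muscle of the back and pituitary gland, each from the same 5 females and 5 males, which are called cows 1 to 5 and bulls 1 to 5 here. All animals were slaughtered at over 22 months of age, the labels name no treatment or genotype, and the tissues were taken immediately after slaughter. The study asked which genes differ between the sexes in these tissues.

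Levels are given as CPM, the reads of a gene relative to the reads on all genes, scaled with TMM factors that align the bulk of the genes between samples. Between 5173092 and 19165864 reads per sample lay on genes (median 10005607). Of the defining markers fixed for the 4 tissues, 20 genes were in the tables, and the summed level of each tissue's list was highest in its own tissue, with hepatocyte markers at 76300 to 130000 CPM in liver (marker sums are on library sizes alone) and at most 434 CPM elsewhere. Hemoglobin genes had a median of 0 CPM in every tissue, and the adipocyte marker ADIPOQ and the muscle marker TTN were not analysed here. The library labelled liver of bull 3 had 8694 reads on XIST, the X-inactivation transcript of female cells, and none on the Y-linked genes USP9Y, DDX3Y and ZFY, which goes against its label. Of all pairs of libraries of a tissue, this liver and that of cow 4 were the most alike (Pearson's r 0.9932 of log2(CPM + 1)). Whether this library came from another animal was not tested. The library labelled fat of bull 5 had 23 reads on USP9Y and 18 on XIST, beside 311 to 539 and 1 to 9 in the fat of bulls 1 to 4. Without the liver of bull 3 the counts of members called were the same in every comparison that used it (0 for sex in liver, over the 4 tissues and for the interaction, and 5, 8 and 2 between liver and fat, muscle and pituitary gland), and without the fat of bull 5 no member was called for sex in fat, as with it.

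In muscle, 7 of the 9 members were higher than in liver and 8 were higher than in fat. This was tested with edgeR's quasi-likelihood test over all 40 samples with sex in the model, at an adjusted p below 0.05. Over all genes, 34.0% were higher in muscle than in liver and 26.8% were higher in muscle than in fat, so the share of members was above the background in both contrasts. HSPA5 alone was lower in muscle than in liver, where 28.0% of all genes were lower. Between muscle and pituitary gland, 6 members were lower in pituitary gland and HSPA5 was higher, beside 31.5% and 32.5% of all genes. The other contrasts held fewer members: 3 were higher and 2 lower in fat than in liver (35.4% and 28.9% of all genes), 3 were lower and 1 was higher in pituitary gland than in fat (31.8% and 32.8%), and 2 were lower in pituitary gland than in liver (29.4%). In bulk tissue, fewer cells of a type and less RNA per cell cannot be told apart. With the animal as a block, pituitary gland was above fat for 3 more members, HSPA8, HSP90AA1 and HSPH1 (quasi-likelihood adjusted p = 0.041, 0.0235 and 0.0297). This made 7 of 9 members called between these tissues. Without the block, 8500 of all 13148 genes were called between them, so the 7 members are not read as an excess.

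**Figure D1:**
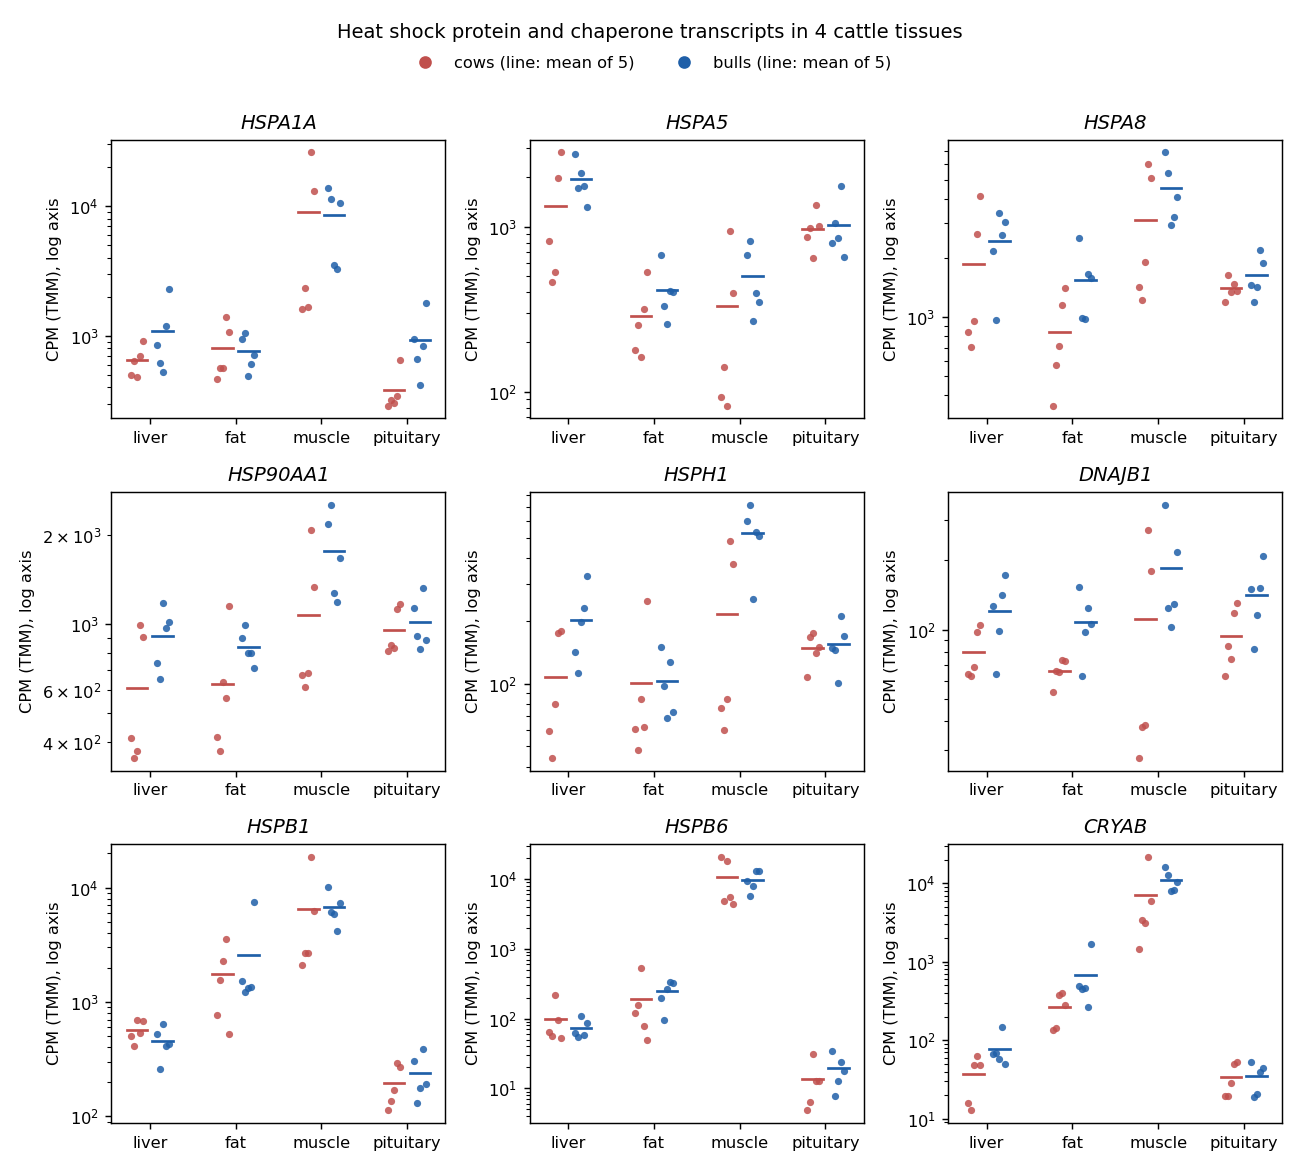
Levels of the 9 members in CPM with TMM factors on log axes, by tissue, with 1 point for each animal (5 cows in red, 5 bulls in blue) and a line at the mean of 5. HSPB6 in muscle, at 4419 CPM or more, lies above every sample of the other tissues, and the HSPA1A values of cows in muscle split into 1622 to 2325 CPM and 13020 to 26110 CPM.

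The small heat shock proteins had the steepest tissue order. HSPB6, a small heat shock protein of muscle also called HSP20, was at 20720, 4828, 18340, 5575 and 4419 CPM in the muscle of cows 1 to 5 and at 9430, 5662, 8030, 12790 and 13100 CPM in that of bulls 1 to 5. Cows 1 and 3 were the highest, and every muscle sample lay above every sample of the other tissues. In fat its level ran from 49.98 over a median of 176 to 533 CPM, in liver from 52.0 over 62.8 to 219 CPM, and in pituitary gland from 4.86 over 12.8 to 34.0 CPM. Fat and liver overlapped, while all samples of pituitary gland lay below all samples of liver. HSPB6 was 47.9-fold higher in muscle than in fat (log2 fold change 5.58, SE 0.385, quasi-likelihood adjusted p = 1.1e-13), 2.51-fold higher in fat than in liver (adjusted p = 0.00325) and 5.25-fold higher in liver than in pituitary gland (adjusted p = 2.03e-06).

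CRYAB, the alpha B-crystallin of lens and muscle, was at 1455, 3399, 3142, 21820 and 6018 CPM in the muscle of the cows and at 16330, 12820, 7969, 8260 and 10430 CPM in that of the bulls. Cow 4 was the highest of the 10 animals and cows 1, 2 and 3 were the lowest. In fat CRYAB ran from 134 over 390.2 to 1689 CPM, in liver from 12.9 over 53.7 to 148 CPM and in pituitary gland from 19.0 over 34.0 to 52.5 CPM. The fat of bull 5, at 1689 CPM, reached above the muscle of cow 1. CRYAB was 20.7-fold higher in muscle than in fat (log2 4.37, SE 0.388, quasi-likelihood adjusted p = 2.88e-11) and 7.91-fold higher in fat than in liver (adjusted p = 4.86e-08), while liver and pituitary gland did not pass the test (log2 -0.61, 95% interval -1.38 to 0.15). CRYAB and HSPB2, another small heat shock protein, are neighbours in RefSeq. Whether they share reads was not tested, and without a stated strand any shared reads could not be told apart.

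HSPB1, the small heat shock protein known as HSP27, ran from 2126 over 5999 to 18590 CPM in muscle, from 528 over 1432 to 7479 CPM in fat, from 259 over 515 to 697 CPM in liver and from 113 over 184 to 384 CPM in pituitary gland. Neighbouring tissues overlapped in this order, but all 3 steps passed the quasi-likelihood test: 3.07-fold from fat to muscle (adjusted p = 0.000294), 4.17-fold from liver to fat (adjusted p = 1.1e-05) and 2.38-fold from pituitary gland to liver (adjusted p = 0.0035). HSPB1 and CRYAB were highest in fat in bull 5, whose summed smooth muscle markers, at 5968 CPM, were also the highest of the 10 fat samples (817 to 5968 CPM). Its summed adipocyte markers (22520 CPM) and hepatocyte markers (433.5 CPM) were the highest too, but not its skeletal fibre, leukocyte or endothelial markers. The TMM factor of this library was 0.9629, beside 1.2584 to 1.4615 in the other fat samples. This fat library had fewer USP9Y reads than those of the other bulls. In all 4 tissues the 6 smooth muscle markers were present, with summed levels of 131 to 593 CPM in liver and 66.2 to 908 CPM in pituitary gland, and they include DES, which muscle fibres express too. The 5 skeletal fibre markers summed to 17.6 to 165 CPM in fat and to 65300 to 129000 CPM in muscle. The part of smooth muscle, or of the other traits of the fat library of bull 5, in these levels was not tested. Between the sexes in fat, HSPB1 changed direction with bull 5, from a log2 fold change of 0.523 (male to female) with it to -0.397 without it, and neither passed the test.

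Beside the members, 7 other small heat shock protein genes had been listed, and 3 of them, HSPB2, HSPB3 and HSPB8, were higher in muscle than in liver, beside 34.0% of all genes. Their log2 fold changes were 6.46 (SE 0.372), 8.40 (SE 0.982) and 5.63 (SE 0.323). The list of 7 had a median log2 fold change of 1.18 from liver to muscle, beside 0.105 over all genes. That median was the value of CRYAA, whose SE was 4859 (quasi-likelihood adjusted p = 0.276), so it is not read as a shift of the list. HSPB9, HSPB11 and ODF1 did not pass the test either (log2 0.67, 0.70 and 0.15). HSPB2 and HSPB8 were also higher in muscle than in fat, whereas HSPB3 was higher in fat than in liver (log2 7.89, quasi-likelihood adjusted p = 7.86e-13) and did not pass the test between fat and muscle (log2 0.51, SE 0.443, adjusted p = 0.331).

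**Figure D2:**
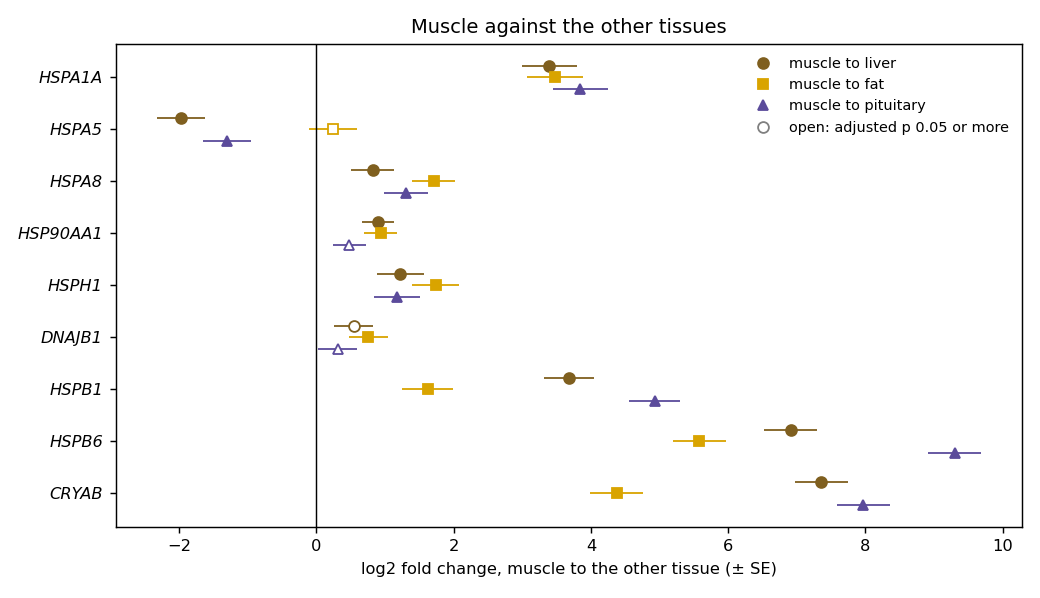
Log2 fold change of muscle to liver, to fat and to pituitary gland for each member, with bars of 1 SE from edgeR's quasi-likelihood fit; filled symbols have an adjusted p below 0.05. HSPB6 and CRYAB stand farthest to the right, and HSPA5 alone stands to the left against liver and pituitary gland.

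HSPA1A, the heat-inducible HSP70, was at 1622, 2325, 1680, 26110 and 13020 CPM in the muscle of the cows and at 13820, 11410, 3540, 3276 and 10600 CPM in that of the bulls. The highest animal was 16.1-fold above the lowest, the widest range of the 9 members in the 4 tissues, with cow 4 on top and cows 1, 3 and 2 at the bottom. In liver it ran from 480.3 over 673 to 2302 CPM, in fat from 461 over 658 to 1399 CPM and in pituitary gland from 289 over 532 to 1803 CPM. Muscle was 10.5-fold above liver (log2 3.39, SE 0.404, quasi-likelihood adjusted p = 8.4e-09), and neighbouring pairs of the other 3 tissues did not pass the test (adjusted p of 0.886 between liver and fat and 0.437 between fat and pituitary gland). Uniquely aligned reads were counted, so HSPA1A, which has a near-identical copy in mammals, may be counted too low.

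HSPA8, the constitutive HSP70 of the cytosol, ran from 1219 over 3664 to 6894 CPM in muscle, from 702 over 2382 to 4142 CPM in liver, from 1188 over 1445 to 2188 CPM in pituitary gland and from 355 over 1072 to 2519 CPM in fat. It was 1.77-fold higher in muscle than in liver (quasi-likelihood adjusted p = 0.0233). The steps from liver to pituitary gland and from pituitary gland to fat did not pass the test (adjusted p = 0.182 and 0.266), the latter passing with the animal as a block (0.041). Cows 1, 2 and 3 were the 3 lowest animals in liver, fat and muscle, and the tissues overlapped.

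HSPH1, the nucleotide exchange factor of HSP70, had the order muscle, liver, pituitary gland and fat by its means of 369, 155, 151 and 102 CPM (SD 238, 86.7, 32.3 and 60.4, n = 10 each). Among neighbours only muscle and liver passed the test, with 2.33-fold (log2 1.22, SE 0.339, quasi-likelihood adjusted p = 0.00208). Liver and pituitary gland were close in this fit (log2 0.05, 95% interval -0.61 to 0.71), and pituitary gland was above fat only with the animal as a block (adjusted p = 0.0297).

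HSP90AA1, the inducible HSP90, had means of 1422, 986, 759.9 and 733 CPM in muscle, pituitary gland, liver and fat (SD 679.8, 185, 300.1 and 246, n = 10 each). No neighbouring pair in this order passed the quasi-likelihood test (adjusted p = 0.0758, 0.125 and 0.914), but with the animal as a block pituitary gland was above liver (adjusted p = 0.0303). In the fit without the block, muscle was 1.86-fold above liver (adjusted p = 0.00121) and 1.91-fold above fat (adjusted p = 0.00086). DNAJB1, the J-domain partner of the inducible HSP70, varied least between tissues, with means of 148, 118, 100.3 and 87.5 CPM in muscle, pituitary gland, liver and fat (SD 107, 44.7, 37.4 and 31.8, n = 10 each). Of its 6 tissue pairs only muscle and fat passed the test, with 1.69-fold (log2 0.76, SE 0.284, adjusted p = 0.0212). The tissue differences of HSP90AA1 and DNAJB1 depended on the scaling. With library sizes alone the median of all genes moved to 0.819 from liver to fat, to -0.859 from fat to muscle and to 0.888 from muscle to pituitary gland (log2), and relative to that median all members but HSPH1 between liver and pituitary gland kept the direction that they had relative to the median under TMM.

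HSPA5 had its highest mean in liver (1640 CPM, SD 852, n = 10). In liver it was at 826, 461, 535, 1994 and 2843 CPM in the cows and at 2787, 1720, 2134, 1782 and 1318 CPM in the bulls, so cows 1, 2 and 3 lay below all the others. In pituitary gland it ran from 651 over 928 to 1781 CPM, in muscle from 82.1 over 373 to 947 CPM and in fat from 162 over 325 to 677 CPM. Liver and pituitary gland did not pass the test (1.6-fold, quasi-likelihood adjusted p = 0.088), pituitary gland was 2.47-fold above muscle (log2 1.31, SE 0.347, adjusted p = 0.00132), and muscle and fat did not pass it (adjusted p = 0.575). Without cows 1, 2 and 3, a choice made after the values were seen, liver was above pituitary gland for HSPA5 (log2 -0.95 from liver to pituitary gland, adjusted p = 0.00512) and for HSPA8 (-0.77, adjusted p = 0.0214). These cows had the 3 lowest liver values of both genes, so leaving them out raises the liver level by construction. The 4 members then called between these tissues are not read as a result. With all animals, 8478 of 13148 genes were called between them.

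Other endoplasmic reticulum chaperones and stress genes had been listed too, and examples from this and the following lists were picked after their values were seen. Of 18 genes tested, 16 were lower in fat than in liver (28.9% of all genes) and 15 were lower in muscle than in liver (28.0%). Their medians were -1.98 and -2.22 on the log2 scale beside 0.132 and 0.105 over all genes. HSP90B1, the HSP90 of this compartment, was at log2 -2.79 from liver to muscle, HYOU1, a large relative of HSP70, at -2.52 and the disulfide isomerase PDIA4 at -3.29. The transcription factors ATF4 and DDIT3 were the 2 genes of this list that were higher in muscle (log2 1.93 and 0.67). Of 22 co-chaperones and regulators, 17 were higher in muscle than in liver (34.0% of all genes) and 18 were lower in pituitary gland than in muscle (31.5%). Their medians were 1.09 and -1.10 (log2) beside 0.105 and 0.031 over all genes. BAG3, which links HSP70 to small heat shock proteins, was higher in muscle than in liver by 2.72 (log2), its relative BAG2 by 3.71, and the heat shock factors HSF1 and HSF2 by 2.05 and 3.16. Of 7 other cytosolic HSP70, HSP90 and HSP110 genes, 5 were higher in muscle than in liver (34.0% of all genes), among them HSPA4 (log2 1.68) and HSP90AB1 (0.85). HSPA13, which is on this list although it is a microsomal HSP70, was lower (-2.28). Of the 8 subunits of the cytosolic chaperonin TRiC, 2 were higher in muscle than in liver (34.0% of all genes) and 7 were lower in pituitary gland than in muscle (31.5%). Of 8 mitochondrial chaperone and protease genes, 2 were higher and 4 were lower in muscle than in liver, beside 34.0% and 28.0% of all genes. Of 39 J-domain genes, a list that shares genes with the endoplasmic reticulum list, 17 were higher and 12 lower in muscle than in liver, shares near the 34.0% and 28.0% of all genes.

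Between the sexes, 1 of the 9 members passed the likelihood ratio test (LRT) of edgeR, in 1 tissue. In pituitary gland, HSPA1A was at 289, 317, 304, 340.2 and 645 CPM in the cows and at 940.2, 666, 419.7, 834 and 1803 CPM in the bulls. Cow 5 overlapped with bull 3, and the other 4 cows lay below all bulls. Cows 1, 2 and 3 had the 3 lowest values. Their summed anterior pituitary markers were 139300 to 194600 CPM beside 223900 to 352000 CPM in the other 7 animals, and 46.7% to 52.1% of their reads lay outside genes beside 33.2% to 46.9%. The part of these measures in the HSPA1A levels was not tested. The means were 379 CPM (SD 149.8, n = 5) in females and 933 CPM (SD 525, n = 5) in males, 2.45-fold apart (log2 1.29, SE 0.342, LRT adjusted p = 0.0349), beside 0.745% of all genes called in this tissue. The quasi-likelihood test of edgeR gave an adjusted p of 0.248. Leaving out each animal in turn gave log2 fold changes of 0.914 to 1.571 and adjusted p-values of 0.00151 to 0.166, and the call was lost in 7 of 10 runs: without bull 1, 4 or 5 (adjusted p = 0.0822, 0.0664 and 0.104) and without cow 1, 2, 3 or 4 (0.166, 0.165, 0.158 and 0.0774). In liver, fat and muscle no member was called, beside 0.175%, 0.114% and 0.517% of all genes.

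The direction of the members was mostly towards males, and it changed when cows 1, 2 and 3 were left out. The log2 fold change, male to female, was above 0 for 7 members in liver, 8 for fat, 7 for muscle and 9 for pituitary gland, where 46.1%, 46.2%, 41.5% and 49.3% of all genes were above 0. Without these 3 cows, a choice made after the values were seen, the counts for liver, fat, muscle and pituitary gland were 5, 5, 3 and 5 members, beside 57.5%, 45.3%, 48.2% and 50.1% of all genes. These cows were picked for low values of most members, so leaving them out lowers most male-to-female values by construction. Only cows 4 and 5 then remain as females, and the counts cannot show what the direction depends on. With library sizes alone the count in pituitary gland was 5 beside 34.5% of all genes. At an unadjusted p below 0.05 there were 3 members with this in liver (CRYAB, DNAJB1 and HSPH1), 3 in fat (CRYAB, DNAJB1 and HSPA8), 1 in muscle (HSPH1) and 2 in pituitary gland (DNAJB1 and HSPA1A), beside 7.45%, 6.88%, 11.0% and 9.27% of all genes. The values of the sexes overlapped for every member in every tissue, while they did not overlap for 0.548%, 1.29%, 1.65% and 1.34% of all genes in liver, fat, muscle and pituitary gland. The 4 samples of an animal are not independent, so the tissues do not count as 4 separate observations.

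**Figure D3:**
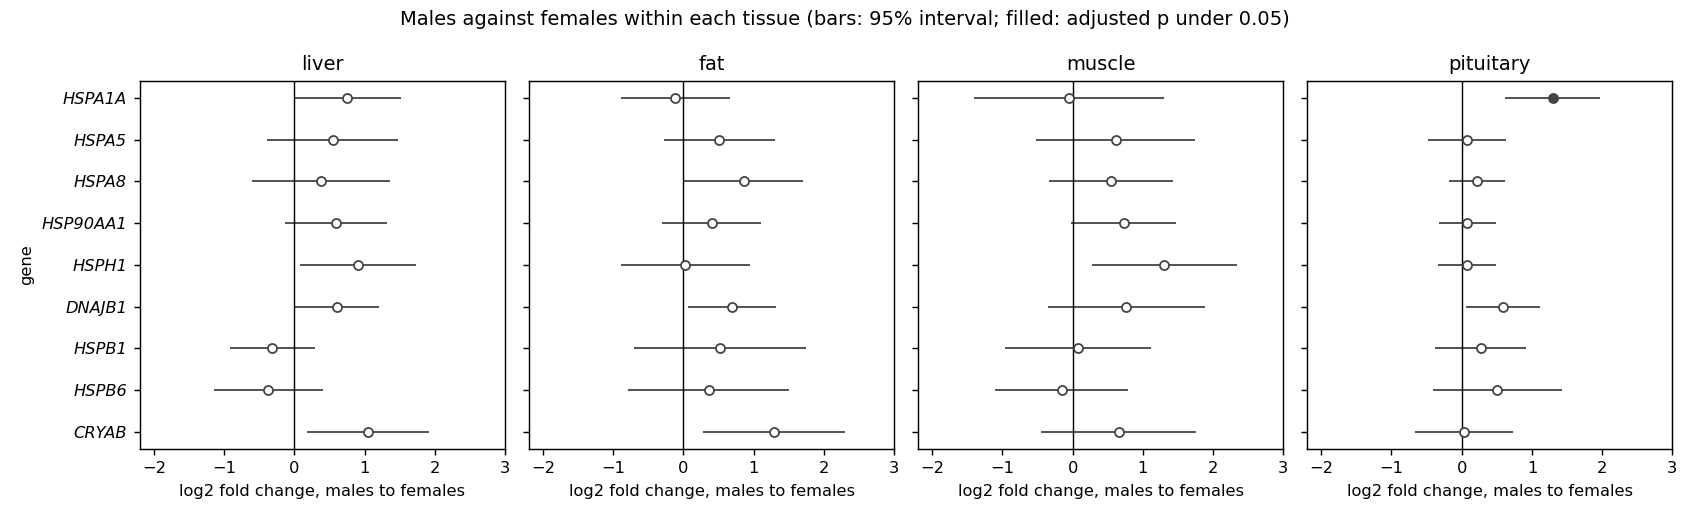
Log2 fold change of males to females in each tissue with 95% intervals from edgeR's LRT fits, n = 5 females and 5 males. HSPA1A in pituitary gland is the single filled symbol (adjusted p below 0.05), and all 9 estimates in pituitary gland lie to the right of 0.

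Over the 4 tissues together, in the model with sex and tissue, no member was called at an adjusted p below 0.05, beside 1.69% of all genes. All 9 had a log2 fold change above 0 (44.0% of all genes). Without cows 1, 2 and 3, picked for low values of most members, 3 did (50.6% of all genes). HSPA1A and HSPA5 were then at -0.24 and -0.24 in place of 0.47 and 0.44, a direction of change that the choice itself favours. Among all animals, 5 had an unadjusted p below 0.05 in the LRT for this model (16.7% of all genes). DNAJB1 came closest (log2 0.66, SE 0.202, 95% interval 0.26 to 1.05, LRT adjusted p = 0.0572), with female and male means of 79.7 and 121 CPM in liver, 66.4 and 108 CPM in fat, 111 and 185 CPM in muscle and 94.3 and 142 CPM in pituitary gland (n = 5 each). It was followed by CRYAB (log2 0.77, SE 0.264, adjusted p = 0.103), HSP90AA1 (0.45, SE 0.165, adjusted p = 0.124), HSPH1 (0.57, SE 0.238, adjusted p = 0.199) and HSPA8 (0.50, SE 0.216, adjusted p = 0.205). HSPB1 and HSPB6 were nearest to 0 (0.14, 95% interval -0.35 to 0.64, and 0.09, 95% interval -0.42 to 0.60). This model treats the 4 samples of an animal as independent, so its SEs and intervals are too narrow where an animal's tissues move together. For DNAJB1, Pearson's r between liver and pituitary gland was 0.966. With voom and the animal as a block no member was called. The test of an interaction of sex and tissue called no member, beside 0.335% of all genes, so an effect of sex on HSPA1A that differs between the tissues was not shown (LRT adjusted p = 0.84).

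The number of members called between the sexes changed when single animals were left out. Without cow 4, 4 members were higher in male muscle in the LRT: CRYAB (log2 1.70, adjusted p = 0.00135), HSPH1 (1.85, adjusted p = 0.0104), HSP90AA1 (1.11, adjusted p = 0.028) and HSPA5 (1.53, adjusted p = 0.0301). The number of all genes called in muscle went from 68 to 553 at the same time. Without cow 4, 4 members were also called over the 4 tissues, with DNAJB1 at an adjusted p of 0.00343, and 4 were called without cow 5. Over all genes, 686 were then called without cow 4 and 714 without cow 5, against 222 with all animals. Without cows 1, 2 and 3, a choice made after the values were seen, no member was called between the sexes in any tissue or over the 4 tissues. Only cows 4 and 5 then remained as females, and the low values behind the choice had been taken out.

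Among all listed chaperone genes that are no members, only HSF4, a heat shock factor best known from the lens, was called for sex, and it was lower in males. The lists held 7, 7, 18, 8, 8, 22 and 39 such genes tested, some of them shared. Over the 4 tissues 1.69% of all genes were called, and a single call among these lists is not read as an excess. HSF4 was at 23.7, 38.9, 25.5, 10.4 and 12.4 CPM in the livers of the cows and at 7.58, 8.23, 3.87, 13.9 and 16.7 CPM in those of the bulls. Cows 1, 2 and 3 were the 3 highest, cows 4 and 5 lay within the range of the bulls, and the lowest value came from the library labelled liver of bull 3. Its log2 fold changes were -1.10, -1.27, -0.71 and -0.25 in liver, fat, muscle and pituitary gland, none of them called, and -0.84 over the 4 tissues (SE 0.237, LRT adjusted p = 0.0366). The LRT gave -0.79 without the liver of bull 3 (adjusted p = 0.0573) and -0.57 without cows 1, 2 and 3 (adjusted p = 0.342). Leaving out these cows, the 3 highest in liver, brings the liver value of HSF4 towards 0 by construction. Leaving out single animals gave -0.54 (without cow 2, adjusted p = 0.236) to -1.02 (without bull 5, adjusted p = 0.00996), and the call was also lost without cow 1 or without bull 1, 2, 3 or 4 (adjusted p = 0.0509, 0.176, 0.131, 0.0563 and 0.0869). The quasi-likelihood test gave an adjusted p of 0.0767 and voom with the animal as a block 0.412. Among the 4 tissues the 8 TRiC subunits were all above 0 in liver, fat and muscle, and 3 of them in pituitary gland, with none called. Of all genes, 46.1%, 46.2%, 41.5% and 49.3% were above 0 in these tissues. Without cows 1, 2 and 3 the numbers above 0 were 0 in liver, 6 in fat, 7 in muscle and 0 for pituitary gland. The shares of all genes were then 57.5%, 45.3%, 48.2% and 50.1%. The 3 cows were picked for low values of most members, and only cows 4 and 5 then remain as females. The TRiC counts therefore cannot show what the direction depends on.

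Low values of most members fell on the same 3 cows. The ear tags in the sample titles of cows 1, 2 and 3 share their first 7 digits or more, while all other pairs of animals share 4 to 6. In muscle, these 3 cows had the 3 lowest of the 10 values for 8 of the 9 members, a pattern noticed in the data. Over all genes, 5.95% had this order in muscle. HSPH1 in muscle was at 76.0, 59.7 and 84.4 CPM in cows 1, 2 and 3, at 480.3 and 374 CPM in cows 4 and 5 and at 600.2, 721, 255, 532 and 509 CPM in bulls 1 to 5. DNAJB1 in muscle was at 27.7, 37.9 and 38.7 CPM in cows 1, 2 and 3, at 271 and 179.6 CPM in cows 4 and 5 and at 349.8, 125, 103, 129 and 218 CPM in the bulls. In both genes every value of the other 7 animals was above those of cows 1 to 3. HSPB6 was the exception, with cows 1 and 3 highest.

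In liver the same 3 cows were lowest for 4 members (HSPA5, HSPA8, HSP90AA1 and HSPH1), beside 4.08% of all genes, in fat for 2 members (HSPA5 and HSPA8, beside 0.745%) and in pituitary gland for 1 member (HSPA1A, beside 6.81%). With library sizes alone, the count in muscle was again 8, beside 1.79% of all genes. Other measures of the libraries moved with the pattern. In muscle, the TMM factors of cows 1, 2 and 3 were 0.8315 to 0.9123 and those of the other 7 animals 0.518 to 0.7833, and their summed leukocyte markers were 79.9 to 125 CPM beside 12.8 to 51.1 CPM. Outside genes lay 53.3%, 42.3% and 48.1% of the muscle reads of these cows and 35.8% to 44.4% of those of the others. Their skeletal fibre markers, at 88030 to 96920 CPM, lay within the range of the others. In liver, the summed smooth muscle markers of cows 1, 2 and 3 were 380 to 593 CPM beside 131 to 275 CPM in the others, and their endothelial markers 225 to 244 CPM beside 97.7 to 188 CPM. The part of these measures in the low chaperone levels was not tested.

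**Figure D4:**
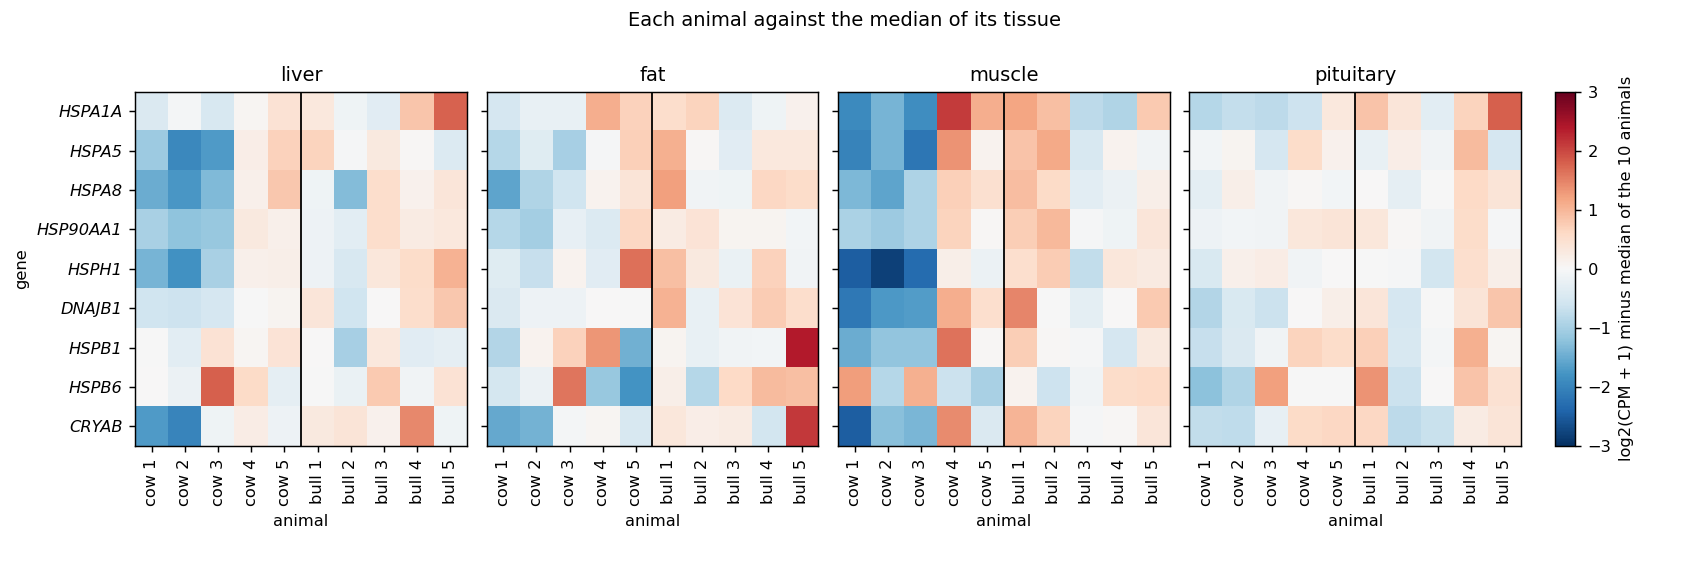
Each animal's log2(CPM + 1) minus the median of the 10 animals of the same tissue, for the 9 members in rows and the animals in columns, with cows left and bulls right of the line. In muscle the columns of cows 1, 2 and 3 are blue (below the median) in every row except HSPB6, where cows 1 and 3 are red.

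Whether members rise and fall together over the animals was examined with HSPH1 against each of the other 8 members in each tissue and with each member between 2 tissues of the same animals, which makes 86 relations of log2(CPM + 1). Clusters were sought only in the values named first in a relation. HSPH1 in muscle, HSPA8 in liver and the relation of HSPH1 between muscle and pituitary gland fell into separate clusters of animals there. No pooled correlation is given for these 12 relations. Of the other 74, 15 had a Benjamini-Hochberg adjusted p below 0.05 over all 86 for Pearson's r in a permutation test, and 8 also for Spearman's rho. The 15 still include relations with such values named second. HSPH1 between liver and muscle, among the 15 but not the 8, had r of 0.801, and -0.345 without cows 1, 2 and 3. HSPH1 and HSPA8 in liver, among the 8, had r of 0.895, and 0.657 without these cows. Without cows 1, 2 and 3, 1 relation passed in an exact permutation test of the remaining 7 animals.

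That relation was DNAJB1 between liver and pituitary gland. Its level was 64.4, 63.1, 69.2, 97.3 and 105 CPM in the livers of cows 1 to 5 and 127, 64.1, 99.1, 142 and 172 CPM in those of bulls 1 to 5. In pituitary gland it was 62.7, 84.9, 74.4, 118 and 131 CPM in the cows and 149.5, 82.7, 115, 152 and 209 CPM in the bulls. Bull 5 was highest in both tissues, and cows 1 to 3 and bull 2 were the 4 lowest in both. Pearson's r was 0.966 over 10 animals (permutation p = 3e-05, adjusted p = 0.00258) and Spearman's rho 0.879 (permutation p = 0.00171, adjusted p = 0.0254). It was 0.961 without the 2 animals farthest from the median in liver, 0.951 with the mean of each sex subtracted, 0.966 without the liver of bull 3 and 0.986 without cows 1 to 3 (exact permutation p = 0.000397, adjusted p = 0.0341, n = 7).

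HSPA1A in fat and muscle had r of 0.929 (permutation p = 0.00027, adjusted p = 0.00666) and rho of 0.891 (permutation p = 0.00123, adjusted p = 0.0254) over 10 animals. Cow 4 was highest in both tissues, at 1399 CPM in fat and 26110 CPM in muscle. Pearson's r stayed at 0.882 without cows 4 and 5, the farthest from the median in fat, and at 0.93 without cows 1 to 3 (exact permutation p = 0.00258, adjusted p = 0.074, n = 7).

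Within a tissue, only pairs with HSPH1 were examined, and of those outside muscle the pair with HSP90AA1 in liver had the highest r. HSPH1 was at 59.4, 44.0, 79.4, 175 and 178 CPM in the livers of cows 1 to 5 and at 142, 112, 198, 231 and 328 CPM in those of bulls 1 to 5. HSP90AA1 was at 413, 352, 373, 996 and 903 CPM in the cows and at 738, 654, 1177, 972 and 1020 CPM in the bulls. Cows 1, 2 and 3 were the 3 lowest for both genes. Pearson's r was 0.935 (permutation p = 0.00019, adjusted p = 0.00666) and rho 0.903 (permutation p = 0.00076, adjusted p = 0.0254) over 10 animals, and r was 0.87 without cows 1 and 2. Without cows 1 to 3 it was 0.756 (exact permutation p = 0.0476, adjusted p = 0.455, n = 7). HSPH1 and DNAJB1 in liver had r of 0.882 (permutation p = 0.00077) and 0.833 without cows 1 to 3, and HSPH1 and HSP90AA1 in fat had r of 0.83 (permutation p = 0.00279) and 0.815. HSPH1 and CRYAB in liver, with r of 0.758 over 10 animals (permutation p = 0.0103, adjusted p = 0.0401), fell to 0.198 without cows 1 and 2 and so rested on those samples. In muscle, within the 7 animals other than cows 1 to 3, HSPH1 had r of 0.124 to 0.697 with the other members, and no exact permutation p was below 0.0728.

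**Figure D5:**
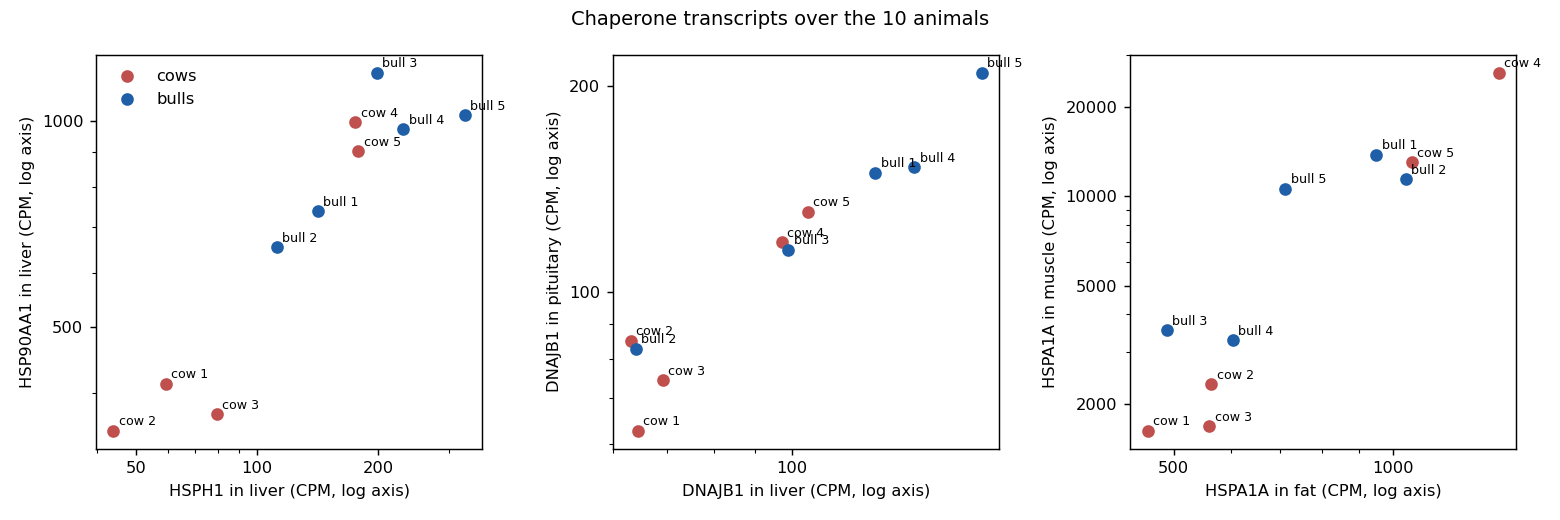
Levels in CPM on log axes of HSPH1 and HSP90AA1 in liver, of DNAJB1 in liver and pituitary gland and of HSPA1A in fat and muscle, with 1 labelled point for each of the 10 animals. Cows 1, 2 and 3 form the lower left of the plot of HSPH1 and HSP90AA1, and r over the other 7 animals alone is 0.986 for DNAJB1 and 0.93 for HSPA1A.

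Genes with the pattern most like that of each member were sought among 10946 genes with a mean of at least 1 CPM, by Pearson's r of log2(CPM + 1) over the 40 samples. These correlations are descriptive, since the samples share animals and tissues, and up to 3 of the closest genes are given for each member. HSPB6 was closest to BNIP3 (0.963), PLN (0.962), which encodes phospholamban, and TPM2 (0.955), a tropomyosin. Among the genes closest to CRYAB were CDH15 (0.954) and CFL2 (0.952), and HSPB1 was closest to ECSIT (0.956), MDH2 (0.946) and MRPS18A (0.941). HSPA1A was closest to RNF19B (0.918), XIRP1 (0.916) and DVL1 (0.911). HSPA8 was closest to STIP1 (0.894), FARSA (0.891) and MRPL15 (0.887). HSP90AA1 was closest to HSPA4 (0.918), HSP90AB1 (0.913) and HSPH1 (0.899), and HSPH1 to HSP90AA1 (0.899), HSPA4 (0.892) and STIP1 (0.875). HSPA5 was closest to HYOU1 (0.933), MANF (0.918) and HSP90B1 (0.885). DNAJB1 had the lowest values of r, with C17H12orf52 at 0.76, PPRC1 at 0.751 and TIPARP at 0.737.

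With the mean of each of the 8 groups of sex and tissue subtracted, which leaves the differences among animals of a group, HSPA1A was closest to RNF19B (0.867), DNAJB1 (0.834) and CSNK1D (0.828). DNAJB1 was then closest to PPRC1 (0.862), TIPARP (0.85) and MYC (0.85), the last a transcription factor of growth. HSP90AA1 was closest to HSPA4 (0.906), HSP90AB1 (0.873) and HSPH1 (0.87), and HSPH1 to HSP90AA1 (0.87), HSPA4 (0.86) and NOLC1 (0.856). HSPA8 was closest to PRMT5 (0.883), STIP1 (0.875) and ISG20L2 (0.874), and HSPA5 to ERLIN1 (0.879), PDIA4 (0.875) and HYOU1 (0.874). Of the small heat shock proteins, CRYAB was closest to HSPB1 (0.753), PRCC (0.738) and PITX3 (0.715), HSPB1 to ALG3 (0.839), MRPS2 (0.829) and ARPC1A (0.826), and HSPB6 to ZNF575 (0.868), SEPP1 (0.862) and CRTAP (0.808). HSPA4, HSP90AB1 and HSPH1 were the 3 closest genes of HSP90AA1 by both measures.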

How the data were processed

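The members and gene lists were chosen with earlier results of these data known. Per the study's methods and the labels, the authors used Trimmomatic for trimming, Bowtie2 and TopHat2 for alignment to bosTau7, and HTSeq for counting of uniquely aligned reads; strandedness is not given in the sources used here. They deposited raw read counts per gene and sample, without normalization. The row without a gene name (0.1135% to 2.69% of the reads on genes) was left out. Counts were analysed in edgeR 4.0.16 (R 4.3.3) with TMM factors, estimateDisp and a prior count of 0.125. Sex was tested with the study's models, M1 (sex, 10 samples of a tissue) and M2 (sex and tissue, 40 samples), by the likelihood ratio test. Tissues were tested by the quasi-likelihood test on the M2 design. P-values were adjusted by Benjamini-Hochberg over 13148 genes (threshold 0.05). SEs come from the fitted models, and 95% intervals are 1.96 SE. Correlations used 100000 permutations, or all permutations for 7 animals. Alternatives were the other edgeR test, RLE factors, library sizes alone, filterByExpr, DESeq2 1.42.0, limma 3.58.1 voom, the animal as a block and leaving out animals. The 4 samples of an animal share an ear tag, which pairs the tissues and not the sexes. No 2 libraries of a tissue agreed within sampling noise, and the livers labelled cow 4 and bull 3 came closest. The scripts were tested on simulated counts. The rule for named genes took all members, of the other listed chaperones those called for sex, and for likeness the 3 genes with the highest r (1 of them is not reported here); tissue examples from the lists and the pattern of cows 1 to 3 were chosen after their values were seen. Levels were not compared between genes, since transcript lengths were not used here.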

Additional observations from a re-analysis of the deposited data

Results flagged for a closer look

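In 72 groups of 5 samples (9 members, 4 tissues, 2 sexes), 9 had a highest value far from the other 4 by Dixon's criterion (gap over range above 0.71). For normal values chance alone flags about 1 in 20 groups. The criterion was applied to CPM and not to logs, and skewed values are flagged more often, on the high side. All 9 were high values, so their number and side cannot show that these animals were unusual. In muscle of cows, cow 4 stood apart for HSPB1 (18590 CPM, others 2126 to 6188) and CRYAB (21820 CPM, others 1455 to 6018). In fat of bulls, bull 5 stood apart for HSPB1 (7479 CPM, others 1218 to 1524) and CRYAB (1689 CPM, others 266 to 491). Cow 3 stood apart for HSPB6 in liver (219.4 CPM, others 52.0 to 93.9) and in fat (533.2 CPM, others 49.98 to 154). Cow 5 stood apart for HSPA1A in pituitary gland (644.9 CPM, others 289 to 340.2) and for HSPH1 in fat (248.5 CPM, others 48.2 to 84.5). Bull 4 stood apart for CRYAB in liver (147.6 CPM, others 49.3 to 69.8).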

How the results depend on the processing

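Between tissues, the number of members called kept within 1.5 times its value under the likelihood ratio test, RLE factors, filterByExpr and DESeq2. It moved to 4 between liver and pituitary gland with library sizes alone and again to 4 without cows 1, 2 and 3. The animals pair the tissues, and with the animal as a replicate block it moved to 7 between fat and pituitary gland. In the main fit, 8478 of 13148 genes were called between liver and pituitary gland and 8500 between fat and pituitary gland. The block also put HSP90AA1 above liver in pituitary gland (adjusted p = 0.0303) and changed no other call between tissues. With each animal left out in turn, the number of members called ran from 5 to 6 between liver and fat, 7 to 8 between liver and muscle, 2 to 3 between liver and pituitary gland, 7 to 8 between fat and muscle, 4 to 6 between fat and pituitary gland and 7 to 8 between muscle and pituitary gland.

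Between the sexes, the number of members called in pituitary gland fell from 1 to 0 under the quasi-likelihood test, with library sizes alone and without cows 1, 2 and 3, and ran from 0 to 1 with each animal left out. In muscle it ran from 0 to 4 with each animal left out. Over the 4 tissues it was 2 with library sizes alone, 1 with filterByExpr, 0 with voom and the animal as a replicate block, and 0 to 4 with each animal left out (4 without cow 4 or without cow 5). Over all genes, the LRT called 23, 15, 68 and 98 genes in liver, fat, muscle and pituitary gland and the quasi-likelihood test 1, 3, 7 and 12. Over the 4 tissues the LRT called 222 genes, the quasi-likelihood test 77, library sizes alone 717 and voom with the block 8, and the interaction 44 and 0 (922 at an unadjusted p below 0.05 in the quasi-likelihood test).

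Directions changed as follows, and the causes were not tested. Without cows 1, 2 and 3, the log2 fold change of males to females in liver was -0.345 for HSPA5, -0.522 for HSPA8, -0.086 for HSP90AA1 and 0.003 for HSPB6. In fat it was then -0.059 for HSPA5, -0.054 for HSP90AA1 and -0.6 for HSPH1. In muscle it was -0.367 for HSPA5, -0.235 for HSPA8, -0.223 for DNAJB1, -0.827 for HSPB1, 1.042 for HSPB6 and -0.263 for CRYAB. In pituitary gland it was -0.225 for HSPA5, -0.197 for HSP90AA1, -0.256 for HSPB1 and -0.571 for CRYAB. Over the 4 tissues it was -0.24 for HSPA1A, -0.245 for HSPA5, -0.091 for HSPA8, -0.054 for HSP90AA1, -0.017 for HSPH1 and -0.335 for HSPB1. The same choice turned HSPH1 between liver and pituitary gland to -0.359, r of HSPH1 and CRYAB in liver to -0.0159 and r of HSPH1 between liver and muscle to -0.345. It took out the 3 lowest liver values of HSPH1, which raises the liver level of this gene by construction.

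With library sizes alone, which moved the median of all genes by -0.125 to -0.211 between the sexes and to 0.919 between liver and pituitary gland, males to females came to -0.105 for HSPH1 in fat, 0.105 for HSPA1A in muscle, -0.09, -0.058, -0.071 and -0.043 for HSPA5, HSP90AA1, HSPH1 and CRYAB in pituitary gland, and -0.07 for HSPB6 over the 4 tissues. From liver to fat the values were 0.652 for HSPA1A, 0.717 for HSP90AA1, 0.26 for HSPH1 and 0.523 for DNAJB1, and from liver to pituitary gland 0.411 for HSPA1A, 0.217 for HSPA5, 0.434 for HSPA8 and 0.231 for CRYAB. From fat to muscle they were -0.712 for HSPA5 and -0.18 for DNAJB1, and from muscle to pituitary gland 0.517 for HSP90AA1 and 0.748 for DNAJB1. HSPH1 in fat came to -0.013 with RLE factors and with DESeq2, HSPB1 in fat to -0.397 without the fat of bull 5, and HSP90AA1 from liver to fat to 0.02 without the liver of bull 3.

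With each animal left out, the log2 fold change between the sexes included both signs for HSPB6 in liver (-0.574 to 0.187), for HSPA1A (-0.271 to 0.192), HSPH1 (-0.151 to 0.672) and HSPB1 (-0.397 to 0.977) in fat, and for HSPA1A (-0.313 to 0.913), HSPB1 (-0.118 to 1.005) and HSPB6 (-0.361 to 0.254) in muscle. It did so in pituitary gland for HSPA5 (-0.216 to 0.238), HSP90AA1 (-0.03 to 0.165), HSPH1 (-0.068 to 0.184) and CRYAB (-0.15 to 0.244), and over the 4 tissues for HSPB1 (-0.079 to 0.517) and HSPB6 (-0.072 to 0.651). Between tissues it did so for HSPA1A (-0.236 to 0.196) and HSP90AA1 (-0.113 to 0.082) from liver to fat, HSPH1 from liver to pituitary gland (-0.118 to 0.211) and HSPA5 from fat to muscle (-0.097 to 0.356). In all, 661 of the alternative values of single members between the sexes and 913 of those between tissues kept their direction and their side of the threshold.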

Other observations

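HSPB6 in cow 3 was the highest of the 10 animals in liver and in fat and the second highest in muscle and in pituitary gland (31.3 CPM), and no other member was highest or second highest in cow 3 in more than 1 tissue. Between tissues, HSPB6 had r of 0.608 for liver and fat (permutation p = 0.0566, adjusted p = 0.128) and 0.678 for fat and muscle (permutation p = 0.0345, adjusted p = 0.0899) over 10 animals. Without cows 1 to 3 the relation of fat and muscle had r of 0.955 (exact permutation p = 0.00218, adjusted p = 0.074, n = 7).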
